A study of Caenorhabditis elegans with 10 samples.

Results

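The first step of the cold treatment moved young adult *C. elegans* from 20°C to 10°C for a few hours, and this report describes the RNA of that step. The members are the protein-coding genes whose RNA reached 1 FPKM (fragments mapped, scaled to transcript length and to the library's total) in at least 1 of the 5 conditions of the series, which were 10509 of 19985 genes. One transcript stood for each gene, the one with the highest mean FPKM over the 5 conditions, and the change is the log2 ratio of FPKM + 0.1 at 10°C over 20°C. Because 0.1 was added to both values, the ratio understates the change of genes with low values.

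All groups were whole wild-type N2 animals, fed on OP50 bacteria and grown at 20°C until they were 1-day-old adults. The 20°C group was collected at that point. The 10°C group was collected after cold adaptation, for which the protocol gives 2 hours and the treatment label 3 hours. The other groups went on from 10°C to 4°C and were collected at day 1, day 3 and, by its title, day 5, although the treatment label of the last group gives 3 days. Each condition had 2 biological replicates, 10 samples in all and 4 in this step, but the deposited table holds 1 value per condition. The spread between replicates is therefore unknown, no test was possible, and a gene was counted as changed at a 2-fold difference. The 10°C animals were also older than the 20°C animals by the hours of the treatment, so temperature and elapsed time cannot be told apart.

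*C. elegans* dies when it is moved directly from cultivation temperature to near freezing, but survives after a period at an intermediate temperature. In the animals sampled here 10°C was that intermediate step. Work on cold-treated nematodes has described roles for the transcription factors ETS-4, PQM-1 and ZIP-10, for the ferritin FTN-1 and for the RNase REGE-1, which degrades *ets-4* mRNA. Membrane lipids and the endoplasmic reticulum (ER) stress sensor IRE-1 are also known to respond to cooling.

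Reads recovered from FPKM and exon length numbered 79504178 at 20°C and 83707785 at 10°C, counting a read for each transcript it overlaps. At this depth a count of 3 reads, used as the floor, corresponded to 0.0377 FPKM at 20°C and 0.0358 FPKM at 10°C for a transcript of 1 kb. The 95% limits given below with single genes come from an exact binomial (Clopper-Pearson) interval on the reads of both conditions. They cover counting error only. A number in parentheses after FPKM values is the log2 ratio of the first step.

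Most RNAs differed little between 20°C and 10°C. The median log2 ratio of all genes was -0.02, with quartiles at -0.13 and 0.07. At 10°C, 133 genes were at least 2-fold higher, which is 1.27% of those past the filter, and 98 were at least 2-fold lower, which is 0.933%. The next step, from 10°C to 4°C day 1, raised 577 genes (5.49%) and lowered 570 (5.42%), and its median absolute log2 ratio was 0.24, against 0.10 for the first step. The 10°C column enters both steps. A change of 4-fold or more was seen in 23 raised and 3 lowered genes.

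**Figure D1:**
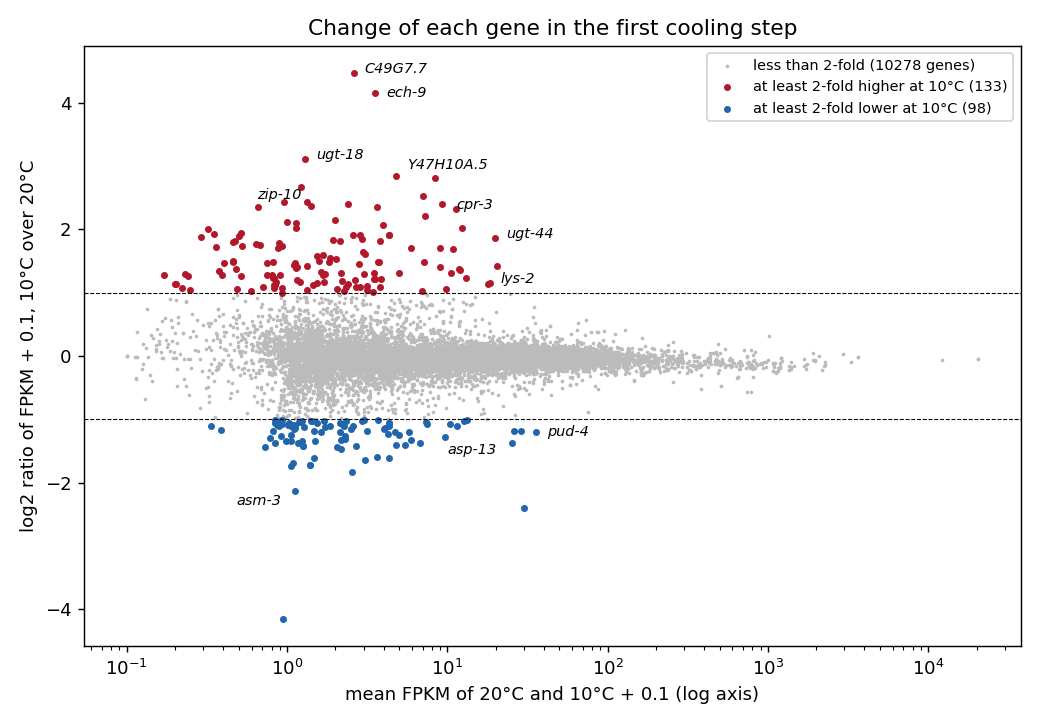
Log2 ratio of FPKM + 0.1 at 10°C over 20°C (vertical axis) against the mean FPKM of both conditions + 0.1 (horizontal log axis), 1 point per gene, for 10509 genes. Red points are the 133 genes at least 2-fold higher at 10°C, blue points the 98 at least 2-fold lower, and the dashed lines mark 2-fold; no point with an FPKM of 100 or more lies outside them.

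The genes that changed were of low abundance. The raised genes had a median of 0.738 FPKM at 20°C and 2.26 FPKM at 10°C, and their highest value in either condition was 31.0 FPKM (*ugt-44* at 10°C). The lowered genes had a median of 2.17 FPKM at 20°C and 0.939 FPKM at 10°C. None of the 617 genes with at least 100 FPKM in either condition changed 2-fold, and their log2 ratios lay between -0.57 and 0.42. Among the 5680 genes with at least 10 FPKM, 0.335% rose and 0.194% fell. Counting error alone left some calls uncertain: the 95% limits lay wholly beyond 2-fold for 63 raised and 21 lowered genes, and included no change for 4 raised and 4 lowered genes.

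The filter on low values bears on both groups. Of the 98 lowered genes, 41 passed it through the 20°C value alone, so those genes had to be lower at 10°C, and 48 reached 1 FPKM in both conditions. Of the 133 raised genes, 7 passed through the 10°C value alone, 30 passed only through a 4°C value, and 53 reached 1 FPKM at both 20°C and 10°C.

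The largest rise was that of *C49G7.7*, a gene on chromosome V (WBcel235, 4034476 to 4036025) known by its sequence name only. It measured 0.126 FPKM at 20°C and 4.88 at 10°C, then 22.9, 2.87 and 1.53 at days 1, 3 and 5. The log2 ratio of the first step was 4.46 (limits 3.89 to 4.97), from 10 reads at 20°C and 409 at 10°C.

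*ech-9*, which encodes a protein of the enoyl-CoA hydratase family, stood next (chromosome IV, 10233310 to 10235329). Its RNA measured 0.278 FPKM at 20°C and 6.62 at 10°C, then 5.55, 0.303 and 0.312 at days 1, 3 and 5, so the raised level was seen at 10°C and day 1 and the later values were close to that of 20°C. The log2 ratio was 4.15 (limits 3.73 to 4.58). It was the 1 raised member of 54 genes of fatty acid breakdown and peroxisomes past the filter, of which none fell 2-fold. The median of that list was -0.02, and *acs-2*, an acyl-CoA synthetase known to be induced by fasting, had its lowest ratio, -0.99, with 5.58 FPKM at 20°C and 2.76 at 10°C.

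Enzymes that conjugate sugars to small lipophilic molecules, the UDP-glucuronosyltransferases, included genes with large rises. *ugt-18* went from 0.170 to 2.23 FPKM (log2 ratio 3.11, limits 2.68 to 3.51) and was at 1.73 FPKM at day 1. *ugt-44* went from 8.42 to 31.0 FPKM (1.87, limits 1.78 to 1.96) and then fell to 2.12 FPKM at day 1 and 0.831 at day 5. *ugt-16*, the neighbour of *ugt-18* on chromosome V, went from 1.99 to 4.77 FPKM. Of 36 members past the filter 3 rose (8.33%, against 1.27% of all genes), 1 fell and 32 stayed within 2-fold, with a median of -0.24. The member that fell, *ugt-63*, was at 7.98 FPKM at 20°C, 3.40 at 10°C and 0.175 at day 1. Other detoxifying enzymes were mostly within 2-fold, with 1 of 29 glutathione S-transferases raised (*gst-22*, 3.67 to 18.6 FPKM, log2 ratio 2.31) and 1 of 35 cytochromes P450 (*cyp-34A2*, 0.848 to 2.01 FPKM, 1.15).

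**Figure D2:**
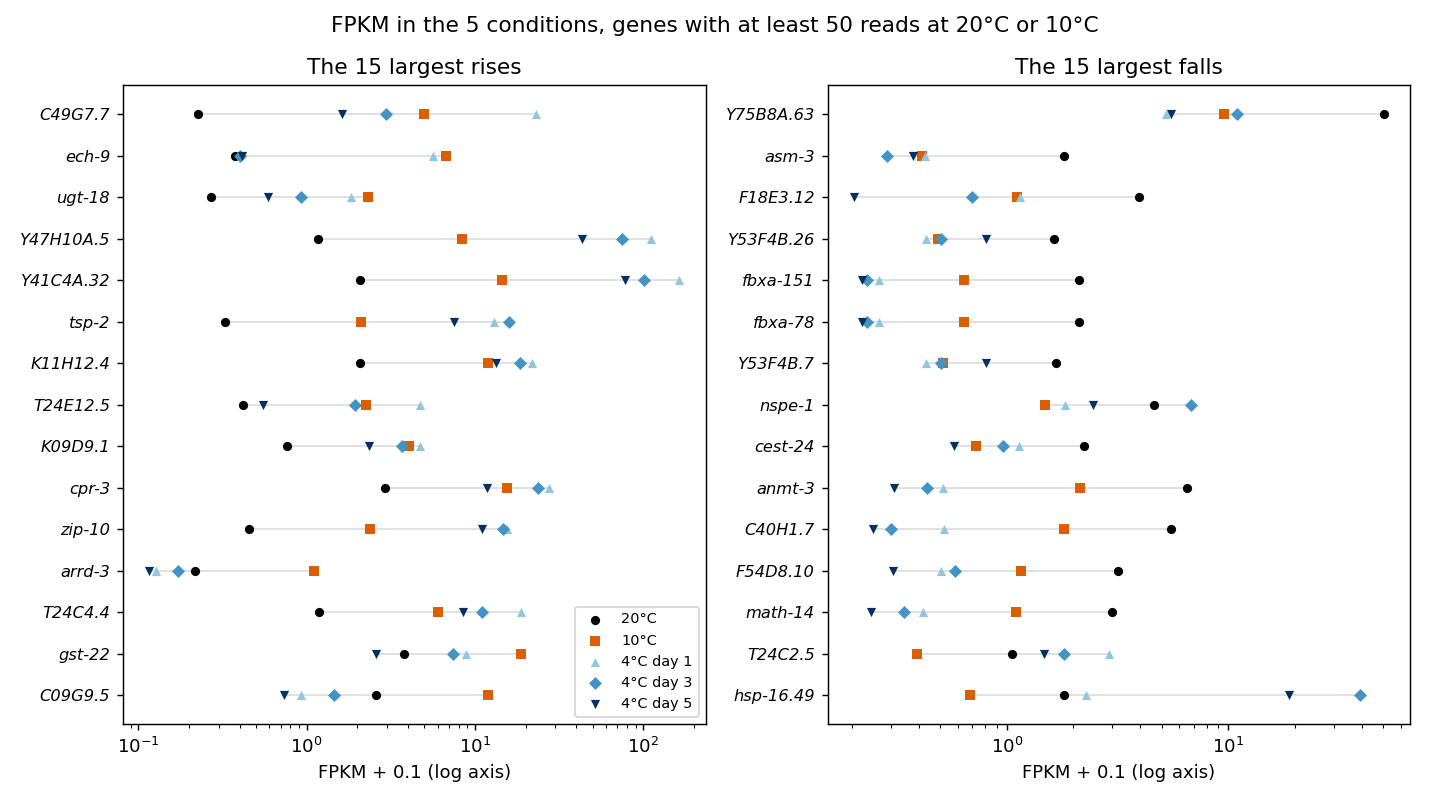
FPKM + 0.1 (log axis) in the 5 conditions for the 15 genes with the largest rise and the 15 with the largest fall from 20°C to 10°C, among genes with at least 50 reads in either. Black circles are 20°C and orange squares 10°C; *C49G7.7* and *ech-9* show the widest gap, and *arrd-3*, *C09G9.5* and *gst-22* have their blue symbols (4°C) to the left of the orange square.

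Among transcription factors of the bZIP and C/EBP families, 3 of 22 genes past the filter rose (13.6%, against 1.27% of all genes) and 2 fell (9.09%, against 0.933%), with a median of 0.16. *zip-10*, whose product is known to act in animals exposed to cold, was at 0.358 FPKM at 20°C and 2.26 at 10°C, then 15.5, 14.5 and 10.9 at days 1, 3 and 5 (first-step log2 ratio 2.37, limits 1.77 to 2.98). *zip-5* was at 4.99 FPKM at 20°C, 16.3 at 10°C, 6.57 at day 1 and 2.36 at day 5 (1.69), and its 3 transcripts had ratios between 1.69 and 1.87. *cebp-1*, a C/EBP factor known from axon regeneration, went from 2.19 to 4.49 FPKM (1.00, limits 0.76 to 1.25), at the edge of the 2-fold threshold. The factors that fell were *zip-12*, from 8.41 to 3.29 FPKM (-1.33), and *zip-8*, from 2.98 to 1.13 FPKM (-1.32). No nuclear hormone receptor gene changed 2-fold among the 101 past the filter; *nhr-3* had the highest ratio of these, 0.97.

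Of 31 genes past the filter on a list of known cold-response genes 6 rose (19.4%, against 1.27% of all genes) and none fell, with a median of 0.09. The list was put together with results of these data known, so its count is not independent evidence. The filter bears on this share, since 3 of the 31 passed it only through a 4°C value. With a filter on 20°C and 10°C only, 5 of 28 rose, with a median of 0.02. *cpr-3*, a cathepsin B-like cysteine protease, had the largest rise of this list, from 2.84 to 15.5 FPKM (log2 ratio 2.41, limits 2.24 to 2.58), and stayed between 11.8 and 27.3 FPKM at 4°C. In the REGE-1 and ETS-4 pathway, the RNase gene *rege-1* was at 3.04 FPKM at 20°C and 5.72 at 10°C (0.89), and *ets-4* at 3.50 and 6.42 FPKM (0.86), both short of 2-fold. *pqm-1*, which encodes a zinc finger factor, was at 4.98 and 9.84 FPKM (0.97) and reached 65.7 FPKM at day 1. The genes of the REGE-1 and ETS-4 pathway past the threshold were *kreg-1*, from 0.849 to 3.22 FPKM (1.81), and the ferritin gene *ftn-1*, from 0.353 to 0.867 FPKM (1.10, limits 0.40 to 1.79), which rested on 17 reads at 20°C and 44 at 10°C. *ftn-1* passed the filter only through a 4°C value.

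Genes of lipid metabolism differed from list to list. None of 20 genes of fatty acid desaturation and elongation and none of 18 genes of phosphatidylcholine synthesis and the methionine cycle changed 2-fold, with medians of -0.03 and -0.02. *fat-6*, a delta-9 desaturase gene, was at 77.5 FPKM at 20°C and 65.5 at 10°C (-0.24). Genes of sphingolipid metabolism, a list drawn up after the values were seen, held 4 raised (13.8%) and 1 lowered (3.45%) of 29 past the filter, with a median of 0.04, beside 1.27% raised and 0.933% lowered of all genes. The lowered gene passed the filter through the 20°C value alone, so it had to be lower at 10°C.

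The raised genes of that list act at different points. *cgt-1*, a ceramide glucosyltransferase, went from 0.330 to 1.74 FPKM (log2 ratio 2.10). *spl-2*, of the sphingosine phosphate lyase family, went from 1.73 to 6.77 FPKM (1.91), and was at 0.240 FPKM at day 5. *ttm-5*, a homolog of dihydroceramide desaturase, went from 1.5 to 3.58 FPKM (1.20), and *bre-1*, which makes GDP-fucose for glycoconjugates, from 6.49 to 17.0 FPKM (1.37) with 96.4 FPKM at day 1. Serine palmitoyltransferase, the enzyme of the first step of sphingolipid synthesis, is encoded by the *sptl* genes, whose log2 ratios were 0.07 for *sptl-1*, 0.85 for *sptl-2* and 0.47 for *sptl-3*. The lowered gene, which passed the filter only at 20°C, was *asm-3*, an acid sphingomyelinase. It was at 1.71 FPKM at 20°C and 0.314 at 10°C, then 0.330, 0.189 and 0.276 at days 1, 3 and 5 (-2.13, limits -2.52 to -1.74). The other acid sphingomyelinase genes, *asm-1* and *asm-2*, had ratios of -0.32 and -0.05.

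Of 17 genes for lipases and lipid droplets 3 rose (17.6%, against 1.27% of all genes) and 1 fell (5.88%, against 0.933%). The filter bears on these shares, since 3 of the 17 passed it only through a 4°C value and 2 through the 20°C value alone. With a filter on 20°C and 10°C only, 1 of 14 rose and 1 fell. With a pseudocount of 1, 0 of 17 rose and 0 fell, and with a filter at 5 FPKM 0 of 10 fell. *faah-2*, a fatty acid amide hydrolase that is not on that list, went from 6.66 to 17.2 FPKM (1.36) and reached 183 FPKM at day 1. *ipla-2*, a phospholipase A2 of the calcium-independent family and also not on that list, went from 5.96 to 14.9 FPKM (1.31). The lysosomal lipase gene *lipl-2* was at 1.41 FPKM at 20°C and 0.496 at 10°C (-1.34). *mxl-3*, which encodes a factor known to repress lysosomal lipase genes in fed animals, was also lower, at 7.76 FPKM at 20°C, 2.87 at 10°C and 0.477 at day 5 (-1.41, limits -1.62 to -1.19).

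Putative lipase genes close to each other on chromosome II, *lips-11* and *lips-13*, rose from near the floor. *lips-11* had 8 reads at 20°C and 53 at 10°C (0.115 and 0.723 FPKM, log2 ratio 1.94), and *lips-13* had 3 and 18 reads (0.0423 and 0.241 FPKM, 1.26, limits 0.43 to 1.77). At day 1 they stood at 113 and 32.5 FPKM.

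In the ER unfolded protein response, 1 of 32 genes rose (*lips-11*), 1 fell (3.12% each) and the median was 0.01. Of all genes 1.27% rose and 0.933% fell. *lips-11*, also counted among the lipases above, passed the filter only through a 4°C value. With a filter on 20°C and 10°C only, none of 31 genes rose and 1 fell. The gene that fell was *cht-1*, a chitinase gene on this list, from 9.88 to 4.72 FPKM (-1.05). The stress sensors were close to their 20°C level, with log2 ratios of 0.09 for *ire-1*, 0.08 for *pek-1* and -0.13 for *atf-6*. *xbp-1*, the transcription factor gene whose mRNA IRE-1 splices, was at 92.7 FPKM at 20°C and 103 at 10°C (0.15), and *hsp-4*, the BiP chaperone gene used as a reporter of this response, at 162 and 180 FPKM (0.16).

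Lists of genes that depend on IRE-1, taken from the study's supplement and compared with these columns after values had been seen, gave larger counts. Of 31 genes past the filter on the list from cold-treated animals (40 listed), 8 rose and none fell, with a median log2 ratio of 0.45. That list was chosen on cold-treated animals, so it is not independent of a response to cold. *Y47H10A.5* led it, at 1.07 FPKM at 20°C and 8.28 at 10°C, then 111, 75 and 43.1 at days 1, 3 and 5 (2.84, limits 2.58 to 3.11). Of 121 genes on the list from tunicamycin treatment, which blocks protein glycosylation in the ER, 7 rose and none fell (median 0.02). Of 126 genes on the list from RNAi of the phosphatidylcholine synthesis gene *pmt-2*, 12 rose and none fell (median 0.05). These counts stand beside 1.27% raised and 0.933% lowered of all genes. The filter bears on them, since 10 of the 31, 6 of the 121 and 19 of the 126 passed it only through a 4°C value. With a filter on 20°C and 10°C only, 6, 4 and 11 genes of these lists rose and none fell. With no filter, 14 genes of the *pmt-2* list rose and 2 fell.

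Heat shock genes gave no rise at 10°C. None of 42 genes for heat shock proteins and cytosolic chaperones was 2-fold higher, against 1.27% of all genes, and 2 were lower (4.76%, against 0.933%). Of the 42 ratios 34 were below 0, with a median of -0.11, beside 5959 of 10509 for all genes past the filter. The pair that fell, *hsp-16.48* and *hsp-16.49*, encodes small heat shock proteins and has identical values in every condition, so reads from the copies cannot be told apart. Each was listed at 1.72 FPKM at 20°C and 0.581 at 10°C, then 2.18, 39.3 and 18.7 at days 1, 3 and 5 (-1.42, limits -2.09 to -0.75). *hsp-16.1* and *hsp-16.11*, from the same region of chromosome V, had ratios of -0.69 and -0.71. All of these were low at 10°C and had their highest values at day 3.

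**Figure D3:**
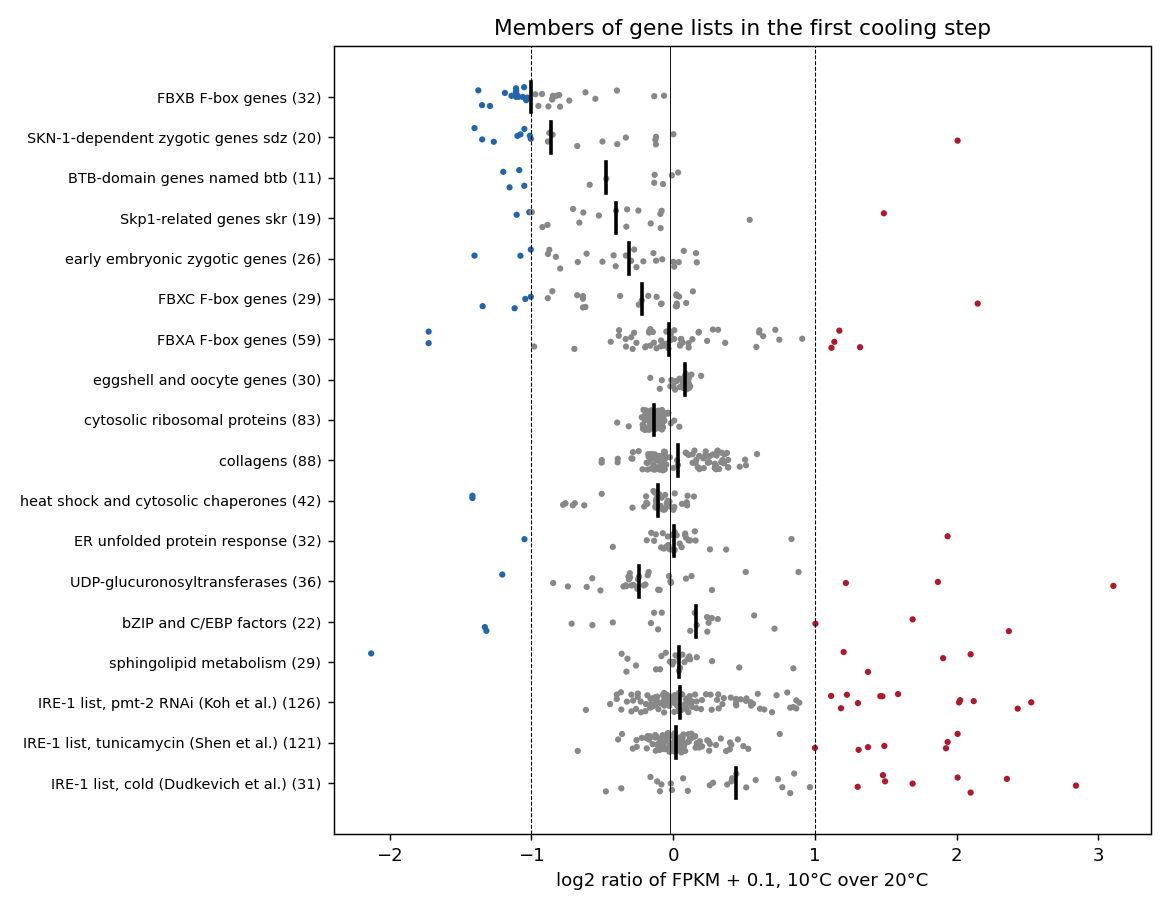
Log2 ratio of FPKM + 0.1 at 10°C over 20°C for each member past the filter (points, spread vertically at random) of 18 gene lists, with the number of members in brackets. Thick bars are list medians, dashed lines 2-fold, and the thin line the median of all genes; the FBXB and *sdz* points lie mostly left of 0, most chaperone, ER stress and collagen points close to 0.

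Many of the genes that fell belong to F-box families. F-box proteins hold the substrates of SCF ubiquitin ligases, in which a Skp1 protein links the F-box protein to a cullin, and nematode genomes carry many such genes, here in the families FBXA, FBXB and FBXC. These families were singled out after their values were seen. Of all 104 FBXB genes, 97 had a lower value at 10°C than at 20°C, 5 had a higher one and 2 had no read in either condition, and their summed FPKM was 91.5 at 20°C and 49.1 at 10°C. Over all 19985 genes without the filter, 10578 ratios were below 0 and 8140 above.

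Single FBXB genes had low values. Only 32 of the 104 passed the filter, and 24 of these passed through the 20°C value alone, so the 16 that were 2-fold lower among the 32 (median -1.0) partly follow from the filter. Without it, among the 93 FBXB genes with at least 20 reads in both conditions together, 91 were below 0, 34 were 2-fold lower, none was 2-fold higher and the median was -0.85. Of all 14158 genes with that many reads, 7872 were below 0, 148 were 2-fold lower and 139 were 2-fold higher. With ratios centred on the median of all genes, the 32 past the filter stayed below 0. The lowest was *fbxb-75*, at 1.58 FPKM at 20°C and 0.547 at 10°C, then 0.199, 0.0632 and 0.108 at days 1, 3 and 5 (-1.38, limits -1.78 to -0.97). The highest ratio among the 32 was -0.06.

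The other F-box families had a smaller share of lowered genes. Of all 170 FBXA genes, 101 were below 0 and 60 above, and their summed FPKM was 272 at 20°C and 265 at 10°C. Of 59 past the filter 4 rose (6.78%, against 1.27% of all genes) and 2 fell (3.39%, against 0.933%). The filter bears on these shares, since 12 of the 59 passed it only through a 4°C value, 4 only at 20°C and 2 only at 10°C. With a filter on 20°C and 10°C only, 3 of 47 rose and 2 fell, and with a pseudocount of 1 none of the 59 changed 2-fold. The FBXA genes that fell, *fbxa-78* and *fbxa-151*, have identical values (2.02 to 0.541 FPKM, -1.73) and count as 1 measurement. FBXC genes lay between: of all 48, 33 were below 0. Of 29 past the filter, with a median of -0.22, 4 fell (13.8%, against 0.933% of all genes). The 1 that rose (3.45%, against 1.27%) was *fbxc-58*, from 0.635 to 3.16 FPKM (2.15) with 17.2 FPKM at day 1. The filter bears on the FBXC share, since 10 of the 29 passed it through the 20°C value alone. Of the 29, 9 are in 3 sets with identical values. With a pseudocount of 1 none of the 29 fell. With a filter at 5 FPKM none of 14 fell, and their median was 0.02.

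The partners of F-box proteins also had lower values. Of 19 Skp1-related (*skr*) genes past the filter 17 were below 0, with a median of -0.40, beside 5959 of 10509 for all genes past the filter. *skr-9* was at 17.6 FPKM at 20°C, 8.66 at 10°C and 2.23 at day 1 (-1.02), and *skr-10* at 15.6, 7.18 and 1.87 FPKM (-1.10). The *skr* gene that rose was *skr-5*, from 0.142 to 0.579 FPKM on 7 and 30 reads (1.49). Of 11 *btb* genes past the filter, which encode proteins with a BTB domain, 4 fell (36.4%, against 0.933% of all genes) and none rose (median -0.47). This list, too, was chosen after its values were seen. Of the 11, 2 passed through the 20°C value alone, so they had to be lower at 10°C. With a pseudocount of 1 none of the 11 fell, and with a filter at 5 FPKM none of 3.

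Transcripts of the early embryo were lower at 10°C too. The *sdz* genes are named as zygotic transcripts that depend on SKN-1, a maternal factor that specifies cells of the early embryo. Of all 32, 29 were below 0 and their summed FPKM was 75.6 at 20°C and 45.5 at 10°C. Past the filter, 8 of 20 fell (40%, against 0.933% of all genes) and 1 rose (5%, against 1.27%), with a median of -0.86. Of the 20, 4 passed through the 20°C value alone. *sdz-30* was at 14.0 FPKM at 20°C and 6.57 at 10°C, then 0.611, 0.327 and 0.398 at days 1, 3 and 5 (-1.08), a fall that continued through day 3. *sdz-28* was at 6.87, 2.54 and 0.437 FPKM at 20°C, 10°C and day 1 (-1.40). The exception, *sdz-35*, went from 2 reads at 20°C to 31 at 10°C (0.0282 to 0.416 FPKM) and reached 8.06 FPKM at day 1.

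Another list, of early embryonic zygotic genes, shares 9 genes past the filter with the *sdz* list and had 20 of 26 ratios below 0. Of the 26, 3 were lowered (11.5%, against 0.933% of all genes) and none was raised, with a median of -0.32. Through the 20°C value alone, 3 of the 26 passed the filter. Of its 17 genes that are not *sdz* genes, 12 were below 0. *pes-10*, an early zygotic transcript, was at 6.98 FPKM at 20°C and 4.34 at 10°C (-0.67), and *vet-6*, named as a very early transcript, at 12.5 and 7.01 FPKM (-0.83). The paralogs *pes-2.1* and *pes-2.2*, next to each other on chromosome I, were at 39.7 and 36.3 FPKM at 20°C and at 17.3 and 15.9 FPKM at 10°C (-1.19 each), among the most abundant genes that fell. *sepa-1*, whose product takes maternal granule proteins to autophagy in embryos, was at 17.1 FPKM at 20°C and 8.29 at 10°C (-1.03). Genes of eggshell and oocyte did not fall: 25 of 30 were above 0, none changed 2-fold and the median was 0.08.

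Adults of this age carry embryos, and in RNA of whole animals fewer cells of a type and less RNA per cell cannot be told apart. The share of embryos in each sample was not measured in these files, and its part in the lower embryonic values was not tested. Other tissues moved less. Medians were -0.02 for 31 muscle and pharynx genes, -0.02 for 19 intestine markers, 0.16 for 16 hypodermis markers, 0.19 for 13 neuron markers and -0.07 for 54 sperm genes, and the 1 gene of these lists past 2-fold was the sperm-listed *nspe-1* (4.54 to 1.38 FPKM, -1.65). All 31 muscle and pharynx genes and all 19 intestine markers on the lists passed the filter, so markers of these tissues were present in the RNA.

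Other falls came from single genes of known function. *asp-13*, an aspartyl protease gene, was at 36.6 FPKM at 20°C and 14.0 at 10°C, then 2.92, 1.86 and 1.61 at days 1, 3 and 5 (-1.38, limits -1.47 to -1.29). *smd-1*, which encodes S-adenosylmethionine decarboxylase of polyamine synthesis, was at 9.66, 3.67 and 1.16 FPKM at 20°C, 10°C and day 1 (-1.37); *F47G4.14*, a model of 54 bases that lies wholly within exons of another gene, fell beside it and is not a separate observation. The largest fitted falls were both on very short gene models: *B0035.22* (30 bases) had 4 reads at 20°C and 0 at 10°C, too few for a fold, and *Y75B8A.63* (39 bases, all shared with another gene) had 156 and 31 reads.

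Housekeeping machinery was close to its 20°C level, with small shifts shared by many members. For cytosolic ribosomal proteins 81 of 83 ratios were below 0 with a median of -0.13, and the extremes were -0.40 and 0.04. Mitochondrial ribosomal proteins (67 of 71 below 0, median -0.08), subunits of the respiratory chain and ATP synthase (49 of 59, -0.09) and histones (69 of 78, -0.17) gave similar values. Ribosome biogenesis genes went the other way, with 26 of 31 above 0 and a median of 0.05. With ratios centred on the median of all genes these medians were -0.11, -0.06, -0.07, -0.14 and 0.07. Of all 10509 genes past the filter, 5959 were below 0. The top decile of genes by mean FPKM (1051 genes) had a median of -0.07, with quartiles at -0.13 and 0.003. The part of abundance in these shifts was not tested. None of 88 collagen genes and none of 9 vitellogenin and yolk uptake genes changed 2-fold, and their medians were 0.03 and -0.04.

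Gene models and positions of the changed genes also differed from the rest. The lowered genes had a median of 2 exons and the raised genes 4, against 5 for all genes, and their median exon lengths were 997 and 944 bases against 1220. Chromosome V held 53 of the 133 raised genes (39.8%) against 18.1% of all genes, and chromosome I held 5 (3.76%) against 17.1%. Chromosome II held 31 of the 98 lowered genes (31.6%) against 17.1%.

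Neighbouring genes changed together in places. Among genes past the filter taken in chromosomal order, the raised genes formed 11 runs of 2 or more with 25 genes, and the lowered genes 14 runs with 32 genes. The longest run was 5 raised genes on chromosome V between 4025047 and 4043601 (WBcel235): *K09D9.1* (log2 ratio 2.41), *C49G7.7* (4.46), *C49G7.12* (1.26), *C49G7.10* (1.92) and *irg-2*, an infection response gene (1.03). The tetraspanin genes *tsp-2* and *tsp-1* adjoin on chromosome III (8236928 to 8239423), and went from 0.229 to 2.00 FPKM (2.68) and from 0.112 to 0.691 FPKM (1.90). Both continued to rise, to 12.9 and 4.43 FPKM at day 1. Runs of lowered genes on chromosome II held *fbxb-43*, *fbxb-42* and *fbxb-44* (1536231 to 1539899) and *fbxb-105*, *sdz-10* and *sdz-9* (2769509 to 2773634). The counts of lowered runs include pairs that are not separate observations. Genes with identical values form the runs *fbxa-78* and *fbxa-151*, *sdz-25* and *M116.1*, and *hsp-16.48* and *hsp-16.49*. In the runs of *smd-1* with *F47G4.14* and of *zip-12* with *Y75B8A.63*, all exon bases of the short second model are shared with another gene. Some other runs are of paralogs with similar sequence, whose reads can be shared. Whether neighbours changed together more often than unlinked genes was not tested.

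The levels at 4°C place each changed gene into 1 of 3 courses. A gene went on if day 1 lay at least 2-fold further in the same direction from 10°C, turned back if it lay at least 2-fold in the other direction, and held otherwise. Since 10°C is the end of the first step and the start of the second, an error in the 10°C value moves both, and towards turning back. Of the 133 raised genes 76 went on (57.1%), 41 held (30.8%) and 16 turned back (12%). The filter bears on these shares, since 24 of the 76 that went on and 6 of the 41 that held passed it only through a 4°C value, and 6 of the 16 that turned back only through the 10°C value. Without the genes that passed only at 4°C, 52 of 103 raised genes went on (50.5%), 35 held (34.0%) and 16 turned back (15.5%). Of the 98 lowered genes 41 went on (41.8%), 50 held (51.0%) and 7 turned back (7.14%), of which 3 passed the filter only through a 4°C value. Of the 41 that went on 17, and of the 50 that held 24, passed the filter through the 20°C value alone. Those genes had to be lower than at 20°C on every 4°C day. Against 20°C, 116 of the raised genes were still at least 2-fold higher at day 1, 92 at day 3 and 84 at day 5, and of the lowered genes 79, 83 and 80 were still at least 2-fold lower. Of all genes past the filter, 6.78%, 7.46% and 5.4% were at least 2-fold higher than at 20°C on those days, and 7.32%, 12.3% and 16.7% at least 2-fold lower. These shares use the 20°C column that also chose the genes. The filter bears on them too, since 41 of the lowered genes passed it through the 20°C value alone. Of the raised genes, 30 passed it only through a 4°C value.

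**Figure D4:**
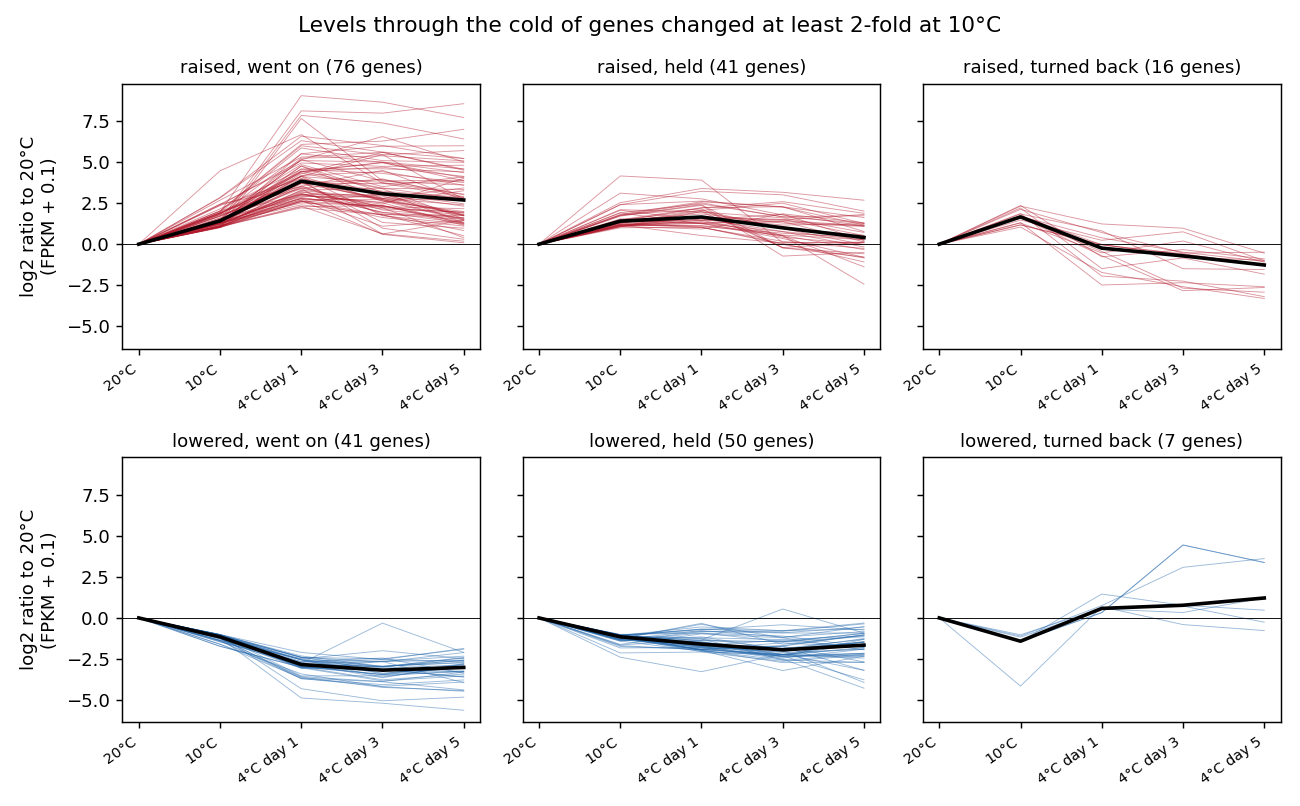
Log2 ratio to 20°C (FPKM + 0.1) in the 5 conditions for the 231 genes changed at least 2-fold at 10°C, in panels by their course from 10°C to 4°C day 1. Thin lines are genes and thick lines medians; every course shares the 10°C value that defines it, and the medians of the 3 upper panels separate at day 1.

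The raised genes that went on had a median of 0.627 FPKM at 20°C and 2.19 at 10°C, then 11.6, 9.26 and 6.68 at days 1, 3 and 5. For some of them the first step was a small part of the rise. *F19B10.13* went from 0.620 to 1.84 FPKM at 10°C (1.43) and then to 199 FPKM at day 1 and 270 at day 5, and *C25F9.11* from 0.348 to 1.71 FPKM (2.02) and to 57.0 FPKM at day 5. *fmo-2*, a flavin monooxygenase gene, was at 0.114, 0.439, 7.42, 20.0 and 6.78 FPKM in the order of the conditions (1.34). *cdr-4*, a cadmium-responsive gene, was at 3.65, 10.4, 59.5, 24.2 and 13.7 FPKM (1.49). *ncr-1*, a homolog of the cholesterol transporter NPC1, was at 1.15, 2.99, 7.0, 6.23 and 3.06 FPKM (1.31).

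The raised genes that held had medians of 0.825 FPKM at 20°C and 2.27 at 10°C, then 2.80, 1.84 and 1.21 at days 1, 3 and 5. At day 5, 15 of the 41 were still at least 2-fold above 20°C. *lys-2*, a lysozyme gene, was at 11.4, 25.3, 29.6, 16.7 and 13.8 FPKM (1.15). *clec-67*, a C-type lectin gene, was at 1.43, 6.30, 4.11 and 1.94 FPKM up to day 3 (2.07) and was back at its 20°C level at day 5. *aex-4*, a SNAP-25 family gene of the intestine, was at 1.41, 3.22, 4.64, 4.19 and 2.07 FPKM (1.14).

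The 16 raised genes that turned back peaked at 10°C among the 5 conditions sampled, with medians of 1.38 FPKM at 20°C and 4.16 at 10°C, then 0.813, 0.268 and 0.192 at days 1, 3 and 5. By day 5, 12 of the 16 were at least 2-fold below their 20°C level. *C09G9.5* was at 2.50, 11.9, 0.829, 1.35 and 0.634 FPKM (2.20). *arrd-3*, an arrestin-domain gene, was at 0.116, 1.01, 0.0272, 0.0719 and 0.0164 FPKM (2.36), with 8 reads at 20°C and 73 at 10°C. *arrd-7* of the same family went on instead, at 1.62, 3.56 and 8.43 FPKM at 20°C, 10°C and day 1 (1.09).

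The acyltransferase homologs *oac* contributed to this course. Of all 56, a family chosen after its values were seen, 7 passed the filter and 3 of these rose (42.9%, against 1.27% of all genes). Of the 7, 3 passed only through a 4°C value, the raised *oac-31* among them. With a filter on 20°C and 10°C only, 2 of 4 rose. *oac-6* was at 0.749, 2.94, 1.39, 0.202 and 0.191 FPKM in the 5 conditions (1.84), and *oac-20* at 1.41, 4.52, 1.01, 0.136 and 0.0990 FPKM (1.61), both turning back. *oac-31* was at 0.142, 0.705, 1.18, 0.108 and 0.0613 FPKM (1.73) and so reversed only after day 1. The family as a whole went both ways: of all 56, 29 were above 0 and 24 below, with a median of 0.04, and of the 17 with at least 20 reads in both conditions together 9 were below 0.

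The lowered genes that went on had medians of 3.08 FPKM at 20°C and 1.35 at 10°C, then 0.318, 0.222 and 0.219 at days 1, 3 and 5, and all 41 were still at least 2-fold lower than at 20°C on day 5. Of the 41, 17 passed the filter through the 20°C value alone, so these had to be lower on day 5. *asp-13*, *smd-1*, *ugt-63*, *skr-9*, *skr-10* and *sdz-30* belong to the lowered genes that went on. Those that held had medians of 2.09 FPKM at 20°C, 0.869 at 10°C and 0.524 at day 5. Of the 7 that turned back, *hsp-16.48* and *hsp-16.49* share their values, *B0035.22*, *C04C11.25* and *ZK792.12* have limits that include no change, and the others were *ZK1290.5*, at 3.82, 1.83 and 5.76 FPKM at 20°C, 10°C and day 1 (-1.03), and *T24C2.5*, at 0.958, 0.293 and 2.80 FPKM (-1.43).

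Values just inside and just outside the threshold were alike. *frpr-11*, a neuropeptide receptor gene, and *cebp-1* were the lowest of the raised genes, both at 1.00, and *ifd-2*, an intermediate filament gene, stood outside at 0.99 with 4.77 FPKM at 20°C and 9.59 at 10°C. *pnp-1*, a purine nucleoside phosphorylase gene at 16.4 and 32.4 FPKM, followed at 0.98. Among the falls *fbxc-29* and *sdz-10* were inside at -1.0 and *skr-8* outside, also at -1.0 after rounding.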

How the data were processed

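RNA of whole animals was extracted with Trizol from the lysates also used for ribosome profiling, and libraries were made with the ScriptSeq v2 kit. Per the submitters' processing notes and the paper's methods, the authors trimmed reads with fastp 0.23.4, removed contaminants such as rRNA, mapped them to WBcel235 with STAR 2.7.11b inside the ORFik pipeline, and used DESeq2 1.42.1 for expression values. The deposited unit is FPKM per transcript, 1 column per condition. The annotation release, use of strand and pooling of the replicates are not given in the sources used here. Without strand, reads of overlapping and antisense genes cannot be told apart. A limma fit had been planned for replicate columns and was not possible; 1 other RNA column could be tied to none of the samples and was left out.

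FPKM multiplied by exon length (Ensembl release 115) gave whole multiples of 1 read, to a tolerance of 0.01, for 100% of values. Filter, pseudocount (0.1), threshold (2-fold) and courses are as stated in the report. Python 3.11.15, pandas 2.3.3 and scipy 1.17.1 were used, and the procedure was tested on simulated data. Members and gene lists were chosen with earlier results of these data known; the FBXA, FBXB, FBXC, *sdz*, *skr*, *btb*, *oac*, *arrd*, *tsp*, sphingolipid and IRE-1 lists and the genes of neighbouring runs were chosen after values were seen. Genes named were the 15 largest rises and the 15 largest falls with at least 50 reads, list members past 2-fold, the 3 highest and 3 lowest of each list described, genes the study measured, and the 5 largest changes of each course. Others (*F19B10.13*, *pnp-1*, *faah-2*, *ncr-1*, *aex-4* and the genes at the threshold among them) were chosen after their values were seen. Promoter sequences were not used here.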

Additional observations from a re-analysis of the deposited data

How the results depend on the processing

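No paired analysis was possible because every condition is given as a single column, and the columns carry no replicate numbers. The counts depend on how low values are treated, and no gene or list median past 2-fold changed direction under the alternatives run, while list medians near 0, such as those of muscle and intestine markers, crossed 0 with centring. Raised genes numbered 133, but 49 with a pseudocount of 1, 75 with a filter at 5 FPKM, 318 at 1.5-fold, 23 at 4-fold and 63 with counting limits beyond 2-fold, an alternative chosen after seeing the data. Lowered genes numbered 98, but 20, 32, 327, 3 and 21 under the same alternatives, and 187 with no filter, where raised genes numbered 173. Raised genes were therefore 57.6% of all changed genes, but 48.1% with no filter, 49.3% at 1.5-fold, 71.0% with a pseudocount of 1, 70.1% with a filter at 5 FPKM and 88.5% at 4-fold. Centring gave 135 raised and 92 lowered genes.

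Raised genes that went on (76) numbered 52 with a filter on 20°C and 10°C only, 27 with a pseudocount of 1, 178 at 1.5-fold and 9 at 4-fold. Raised genes that turned back (16) numbered 7 with a pseudocount of 1, 31 with no filter, 4 with a filter at 5 FPKM, 50 at 1.5-fold and 2 at 4-fold. Lowered genes that went on (41) numbered 9 with a pseudocount of 1, 15 with a filter at 5 FPKM, 177 at 1.5-fold and 0 at 4-fold, where only 3 genes were lowered. Lowered genes that turned back (7) numbered 1 with a pseudocount of 1, 15 with a pseudocount of 0.01, 11 with sums over transcripts, 20 with no filter, 4 each with a filter at 5 FPKM, a filter on 20°C and 10°C only and at least 50 reads, 38 at 1.5-fold and 1 at 4-fold. The FBXB median of -1.0 was -0.53 with a pseudocount of 1, and a filter at 5 FPKM left 1 gene at -0.13. The *sdz* median of -0.86 was -0.45 with a pseudocount of 1. The median of the IRE-1 list from cold was 0.45, and 0.74 with a filter at 5 FPKM. The planned search for promoter motifs was not run, because no promoter sequences were at hand. The spread between replicates is unknown, so the limits cover counting error only.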

Other observations

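Some gene groups held few genes past 2-fold, in shares to be read against 1.27% raised and 0.933% lowered of all genes past the filter. Among 194 genes for solute carriers and ion transport, 105 passed the filter and 1 rose (0.952%, below the share of all genes), *swt-6*, a sugar transporter gene of the SWEET family, from 1.73 to 3.79 FPKM (log2 ratio 1.08) with 17.8 FPKM at day 1. Of 36 ABC transporter genes 1 rose (2.78%), *abt-4*, from 2.35 to 5.08 FPKM (1.08). Of 56 C-type lectin genes past the filter 2 rose (3.57%), *clec-67* and *clec-4*, and 2 fell (3.57%), *clec-196* and *clec-266*. *clec-4* turned back, at 1.97 FPKM at 20°C, 4.16 at 10°C, 0.528 at day 1 and 0.109 at day 5 (1.04).

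Of 91 neuropeptide and insulin-like peptide genes none changed 2-fold, with log2 ratios between -0.77 and 0.86 and a median of 0.05. None of 26 genes of the *daf-16* pathway and none of 26 oxidative stress genes changed 2-fold (medians 0.02 and -0.06).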
